A study of Mus musculus with 4 samples.

Results

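Wide H3K4me3 regions were defined as the regions of 1000 bp or more on chromosomes 1 to 19 in the B6 and NOD lists of strain-enriched H3K4me3 regions from mouse embryonic stem (ES) cells. They were thus chosen on a measured value, the region width, and numbered 177 of the 7519 autosomal regions in the B6 list and 807 of the 11830 in the NOD list, or 984 of 19349 in all. ES cells had been derived from embryos of C57BL/6 (B6) mice and of NOD mice, a strain prone to autoimmunity, and all cells were grown in 2i, the combination of MEK and GSK3 inhibitors that keeps ES cells in a naive state. Chromatin was immunoprecipitated with 1 antibody to H3K4me3 and 1 to H3K27ac in each strain, giving 4 libraries. There was 1 library per strain and mark and no replicate, so no test between strains was possible, and all intervals below are 95% intervals that cover counting error only. No untreated, input or differentiated sample was among them, and within these libraries the identity of the cells as ES cells rests on the labels. The study itself reports pluripotency markers and germline transmission for its B6 and NOD ES lines. The H3K4me3 libraries held 14791364 tags (aligned reads) in B6 and 22750449 in NOD, 1.54 times as many. The background in each call was the other strain, so that every region carried at least 4-fold more tags in its own strain by construction, and regions marked alike in both strains were outside both lists.

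Trimethylation of lysine 4 on histone H3 is laid down by the SET1 and MLL methyltransferases, mostly at transcription start sites (TSSs) that lie in CpG islands, since subunits of these complexes bind unmethylated CpG. At most active promoters the mark forms a short peak on the nucleosomes next to the TSS, whereas at some genes it extends far into the gene body as a broad domain, which has been linked to genes of cell identity. H3K27ac marks active promoters and enhancers, and long stretches of it that rank high in signal are called super enhancers.

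The wide regions ranged from CpG-rich promoters to DNA almost without CpG. To show this range, 240 bases from the centre of the region with the highest and the lowest ratio of observed to expected CpG are printed for each list, chosen among the 10 wide regions with the most normalised tags (tags per 10000000 tags of the library), followed by the 250 bases before the TSS of a lineage gene covered by a wide region in each list. The bases are the GRCm38 (mm10) reference, a C57BL/6 sequence, read 5′ to 3′ and credited to RefSeq for the promoters; capitals mark CpG dinucleotides.
5730507C01Rik, B6 list (chr12:18514997-18515236, + strand): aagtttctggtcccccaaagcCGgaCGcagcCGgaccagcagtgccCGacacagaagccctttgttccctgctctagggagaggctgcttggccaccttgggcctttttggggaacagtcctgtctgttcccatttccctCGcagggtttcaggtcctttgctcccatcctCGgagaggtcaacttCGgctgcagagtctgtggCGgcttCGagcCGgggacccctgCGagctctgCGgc
Elobl, B6 list (chr11:88968920-88969159, + strand): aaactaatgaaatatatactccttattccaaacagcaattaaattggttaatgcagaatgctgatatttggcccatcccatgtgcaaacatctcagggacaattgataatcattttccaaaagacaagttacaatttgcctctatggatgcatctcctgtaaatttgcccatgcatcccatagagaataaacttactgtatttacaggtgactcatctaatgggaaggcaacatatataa
Stac2, NOD list (chr11:98068261-98068500, + strand): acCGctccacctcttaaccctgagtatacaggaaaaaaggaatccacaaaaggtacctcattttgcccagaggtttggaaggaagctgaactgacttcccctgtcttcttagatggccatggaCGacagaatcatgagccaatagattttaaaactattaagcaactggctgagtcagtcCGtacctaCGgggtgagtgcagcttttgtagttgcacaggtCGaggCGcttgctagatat
Gm41986, NOD list (chr2:177321082-177321321, + strand): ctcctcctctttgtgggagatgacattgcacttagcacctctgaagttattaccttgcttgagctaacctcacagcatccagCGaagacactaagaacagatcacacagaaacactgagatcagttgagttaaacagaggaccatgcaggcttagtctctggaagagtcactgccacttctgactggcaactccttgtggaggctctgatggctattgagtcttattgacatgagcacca
Olig2 promoter, B6 list (chr16:91225300-91225549, + strand): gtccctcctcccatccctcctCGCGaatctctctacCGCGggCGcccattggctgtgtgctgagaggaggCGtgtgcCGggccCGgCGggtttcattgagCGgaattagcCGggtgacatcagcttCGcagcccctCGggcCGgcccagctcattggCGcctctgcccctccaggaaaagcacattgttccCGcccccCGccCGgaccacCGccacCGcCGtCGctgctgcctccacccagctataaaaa
Neurog2 promoter, NOD list (chr3:127632886-127633135, + strand): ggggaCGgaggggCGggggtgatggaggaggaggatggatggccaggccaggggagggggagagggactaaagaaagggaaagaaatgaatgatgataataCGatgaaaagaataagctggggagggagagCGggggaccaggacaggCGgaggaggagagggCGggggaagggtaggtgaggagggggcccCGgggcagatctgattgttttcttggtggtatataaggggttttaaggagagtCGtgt

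The window of 5730507C01Rik, a protein-coding gene with a wide B6 region over its TSS, held 12 CpGs, and that upstream of Elobl held 0. In NOD the window of the intergenic region near Stac2 held 6 CpGs, and that in the intron of Gm14412 next to Gm41986 held 1. The promoter of Olig2, a basic helix-loop-helix factor of oligodendrocytes and motor neurons, held 22 CpGs and had a CpG ratio of 0.82, and that of Neurog2, a proneural factor, held 8 and had a ratio of 0.71. The median ratio over 32851 RefSeq promoter windows of this length was 0.374.

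Wide regions were a small share of each list but a larger share of its signal. They made up 2.35% of the B6 list and 6.82% of the NOD list, covered 255 and 1346 kb, and held 10.99% and 29.3% of all normalised tags of the list. Most were only just wide. In the B6 list 123 spanned 1000 to 1499 bp, 37 spanned 1500 to 1999 bp and 17 spanned 2000 bp or more, with a maximum of 3031 bp. In the NOD list these numbers were 461, 169 and 177, the maximum was 7740 bp, and 45 regions reached 3 kb against 1 in the B6 list. The ratio of NOD to B6 regions was 1.57 for the full lists and 4.56 for wide regions (3.88 to 5.36), and rose to 10.4 at 2000 bp or more. The NOD library was the deeper one by 1.54 times, and the part of depth in this ratio was not tested.

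At the threshold, the first regions outside were a 997-bp region near Gm6659 with 62 B6 and 1 NOD tags, a 999-bp region near 4930539M17Rik with 65 NOD and 0 B6 tags, and another of 999 bp near Atp5pb-ps with 48 and 7. The first inside were a 1000-bp region in Prr15 with 34 B6 and 9 NOD tags and a 1002-bp region in an intron of Klhl29 with 61 NOD and 1 B6 tags.

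Signal rose with width as the plot of width against signal shows. The median signal was 62.2 normalised tags (interquartile range 36.5 to 105) in wide B6 regions against 13.5 in narrower ones, and 59.8 (35.6 to 111) against 12.7 in the NOD list. Median tags per kb were 43.1 against 25.6 in B6 and 38.9 against 24.6 in NOD. Wide regions were more rarely empty in the other strain. No tag of the other strain fell in 14 of 177 wide B6 regions (7.91%, 4.77 to 12.8) and in 44 of 807 wide NOD regions (5.45%), whereas 38.6% and 37.1% of narrower regions were empty. The median fold between strains, with counts under 3 tags set to 3, was 8.35 in B6 and 7.56 in NOD. Because width, tags and fold come from the contrast that made the lists, these values describe the members and are no evidence about them.

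**Figure D1:**
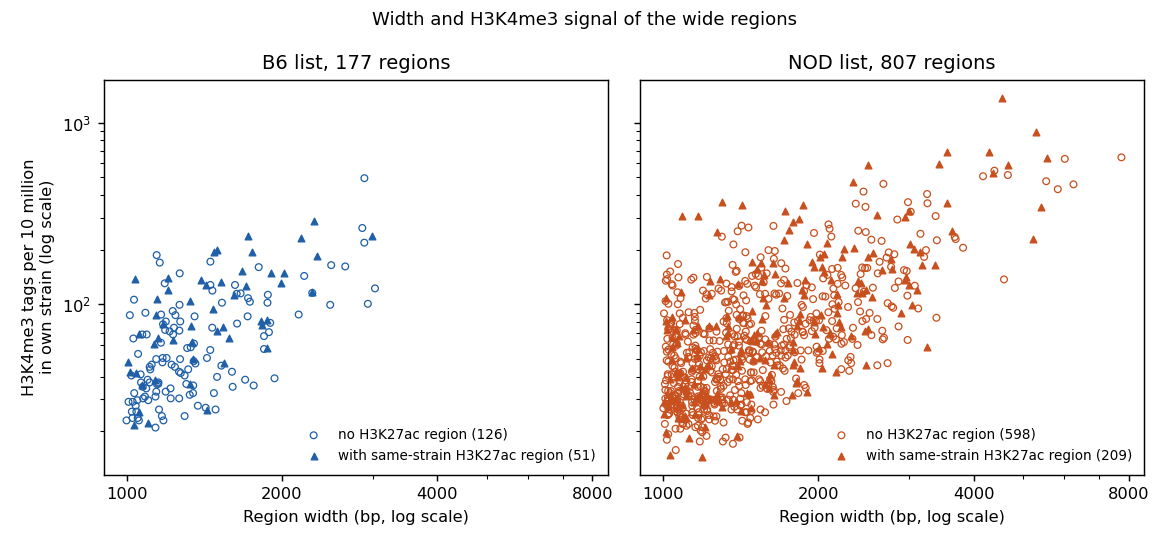
H3K4me3 signal (normalised tags in the own library, log axis) against region width (bp, log axis) for the 177 wide B6 regions and the 807 wide NOD regions. Each point is 1 region, and filled triangles overlap an H3K27ac region of the same strain (51 and 209). Both lists are densest near 1000 bp, and the NOD list alone reaches beyond 4000 bp.

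The strongest wide B6 region lay between genes, 8.6 kb downstream of the TSS of Ier2, an immediate-early gene (chr8:84652765-84655656). It held 494 normalised tags in B6 and 14.9 in NOD (731 and 34 tags), a 33.1-fold difference (23.4 to 48.1), and overlapped no H3K27ac region of either list. The next 2 lay in and beside Xkr8, which encodes a phospholipid scramblase, on chromosome 4. One covered the TSS with 263 normalised tags in B6 and 64.6 in NOD, a 4.07-fold difference, and the other, 5.61 kb upstream in an intron of Smpdl3b, had 286 and 25.9. The stronger of the pair overlapped a B6 super enhancer, and the one on the TSS overlapped no H3K27ac region.

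A 2994-bp region 2.11 kb upstream of Elobl (chr11:88967542-88970536) held 237 normalised tags in B6 and 34.3 in NOD, and overlapped the H3K27ac region ranked 1 by score in the B6 list. Regions in introns of the long non-coding genes E330020D12Rik and Gm46418 held 238 and 218 normalised tags in B6 and 18.02 and 4.84 in NOD. An intergenic region 39.3 kb from Gm26747 on chromosome 8 held 231 and 29.5 and overlapped a B6 super enhancer. All 10 of the strongest B6 regions thus kept some NOD tags, between 10 and 147. Of these, 3 covered the TSS of an annotated gene, namely Xkr8, 5730507C01Rik and the MHC class I-like gene Gm8909.

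The wide B6 regions without a single NOD tag were led by an intergenic 2493-bp region 8.78 kb from Mrps24, a mitochondrial ribosomal protein gene (chr11:5697676-5700169). It held 243 B6 tags and had at least 125-fold more normalised tags in B6, taking the limit of 3 tags for a count of 0. A 1876-bp region in the pseudogene Gm7240 followed with 151 B6 tags, and a region in an exon of Stk10, a kinase gene of lymphocytes, with 130. Per the study's methods, reads were aligned to the mouse reference, which is a B6 sequence. Whether NOD DNA holds the sequences of these regions, and whether NOD reads can align there, was not tested. The widest B6 region, of 3031 bp, lay 25.4 kb upstream of Dhrs7 and was of middling strength, at 122 normalised tags in B6 and 15.8 in NOD.

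The strongest NOD region exceeded all others. It spanned 4544 bp in an intron of the predicted gene Gm42346 (chr4:145431999-145436543) and held 1369.6 normalised tags in NOD against 66.9 in B6 (3116 and 99 tags), a 20.5-fold difference (16.8 to 25.3). The second, of 5276 bp, covered the TSS of the same gene and held 887 and 33.8. Both overlapped NOD super enhancers, and the H3K27ac region under the first was ranked 2 by score in the NOD list.

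Of the 10 strongest NOD regions, 4 lay within 1 Mb of chromosome 2 that holds a cluster of zinc finger and predicted genes. They were the regions near Gm14407 with 686 normalised tags in NOD and 151 in B6, at Gm41986 with 644 and 80.5, a second one in Gm41986 with 587 and 89.9, and at Gm14403 with 581 and 89.2. The region at the TSS of Gm41986 was the widest of all, at 7740 bp, and overlapped no H3K27ac region. That near Gm14407 overlapped the NOD H3K27ac region ranked 1 by score. Genes of this cluster, and of that around Gm42346 on chromosome 4, may be alike in sequence, so that reads may not be assigned among them with certainty. This was not tested, and how such reads were treated is not given in the sources used here.

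Outside the clusters, an intron of Ipp, which encodes a kelch protein, carried a 5551-bp region with 1450 NOD and 13 B6 tags, a 72.5-fold difference (42.3 to 137). A 3550-bp intergenic region 14.9 kb from Stac2 held 686 normalised tags in NOD and 79.1 in B6. No wide NOD region with more than 167 NOD tags was empty in B6. That one lay in an exon of the non-coding gene Gm41159, and was at least 36.2-fold higher in NOD.

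**Figure D2:**
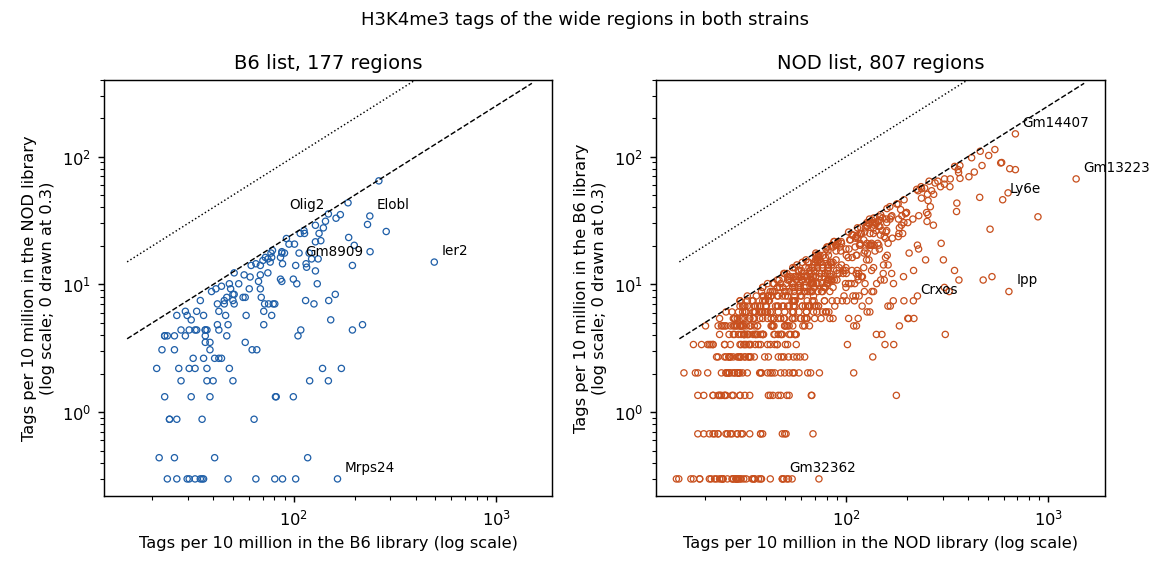
H3K4me3 normalised tags in the strain of the list (horizontal, log axis) and in the other strain (vertical, log axis, with 0 drawn at 0.3) for each wide region. The dashed line marks 4-fold, the requirement of the lists, and the dotted line equal tags. Points run along the dashed line, with Ier2, Mrps24, Ipp and Gm13223 (the nearest gene of the strongest NOD region) far below it.

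H3K27ac had not been used to choose the regions, and a region of the same-strain H3K27ac list lay on about 1 in 4 of them. The H3K27ac lists are scored as own minus other strain. A wide region without overlap may therefore still carry H3K27ac that is alike in both strains. A same-strain H3K27ac region overlapped 51 of 177 wide B6 regions (28.8%, 22.6 to 35.9) and 209 of 807 wide NOD regions (25.9%, 22.995 to 29.0). Over the full autosomal lists the shares were 3.59% in B6 and 5.65% in NOD, and over regions under 1000 bp 2.98% and 4.16%. In B6 the share was 1.99% at 500 bp, 43.2% at 1500 to 1999 bp and 35.3% (6 of 17, 17.3 to 58.7) at 2000 bp or more. In NOD it was 2.87%, 30.2% and 37.9% in these classes. A longer region has more bases to overlap, and within the central 500 bp alone the shares of wide and narrower regions were 23.7% and 2.91% in B6 and 19.7% and 3.98% in NOD.

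Signal moved with this share. Among B6 regions of 40 to 80 normalised tags, H3K27ac overlapped 17 of 59 wide regions (28.8%, 18.8 to 41.4) and 34 of 163 narrower ones (20.9%, 15.3 to 27.7), and the intervals overlapped. In the same band of the NOD list it overlapped 63 of 279 wide regions (22.6%, 18.1 to 27.8) and 40 of 457 narrower ones (8.75%, 6.49 to 11.7). With the central 500 bp only, NOD regions of 80 to 160 normalised tags had shares of 19.6% and 17.3%, and those of 20 to 40 had 15.5% and 7.18%. Over whole B6 regions the wide share was the higher in all 3 bands. It was 13.2% against 6.48% at 20 to 40 normalised tags, and 39.6% against 19.2% at 80 to 160. The B6 intervals of wide and narrower regions overlapped in each band, and no test of the difference was run. In NOD the intervals were apart in the bands of 20 to 40 and of 40 to 80. These bands were added after the values were seen.

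Overlap with the H3K27ac list of the other strain was rare, but was limited by the way the lists were made. Their regions are scored as own minus other strain, so acetylation alike in both strains can be missing from both lists. An H3K27ac region of the other strain overlapped 3 of 177 wide B6 regions (1.69%, against 0.532% of the full list) and 4 of 807 wide NOD regions (0.496%, against 0.888%). The 3 in B6 lay in an intron of Cntnap2, within the Gm8909 locus and 1.94 kb upstream of Hikeshi, where 52 B6 tags faced 0 NOD tags although the NOD H3K27ac list held a region there. The 3 strongest in NOD lay in St3gal2, at the TSS of Rbm47 and in Zdhhc18, with 81, 70 and 55 NOD tags and 5, 7 and 7 B6 tags.

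The H3K27ac regions that met an H3K4me3 region of either width scored above the whole H3K27ac list. On the authors' scale of own minus other strain, the median score under wide regions was 84.8 in B6 (32.1 to 108.3) and 86.4 in NOD (61.8 to 118.2), against 30.3 (21.2 to 39.0) and 59.2 (43.4 to 73.0) under narrower ones and 12.9 for all autosomal H3K27ac regions of either list. The intervals of wide and narrower regions overlapped in both strains. Where several H3K27ac regions overlapped, the highest score was taken, and an H3K27ac region met by several H3K4me3 regions counted for each. Super enhancers were met by 27 of the 51 overlapping wide B6 regions (52.9%, 39.5 to 65.9) and by 98 of the 209 in NOD (46.9%, 40.2 to 53.7), and by 33.8% (27.9 to 40.3) and 37.9% (33.6 to 42.4) of overlapping narrower regions. Seen from the other side, wide regions overlapped 25 of 395 autosomal B6 super enhancers (6.33%) and 90 of 503 in NOD (17.9%, 14.8 to 21.5), against 0.902% and 3.39% of all H3K27ac regions. A longer H3K27ac region has more bases to overlap, and widths were not matched in these shares. In NOD, the wide regions near Gm14407, near Gm13223 in an intron of Gm42346, and at Crxos lay on the H3K27ac regions ranked 1, 2 and 3. The authors annotated 33 of the 209 NOD and 6 of the 51 B6 partner regions as ERVK, a family of endogenous retroviruses, which is 15.8% and 11.8%, against 11.5% and 8.68% of the partners of narrower regions, with overlapping intervals. Among them were partners of the second wide region in Gm41986 and of the B6 region in Aire.

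**Figure D3:**
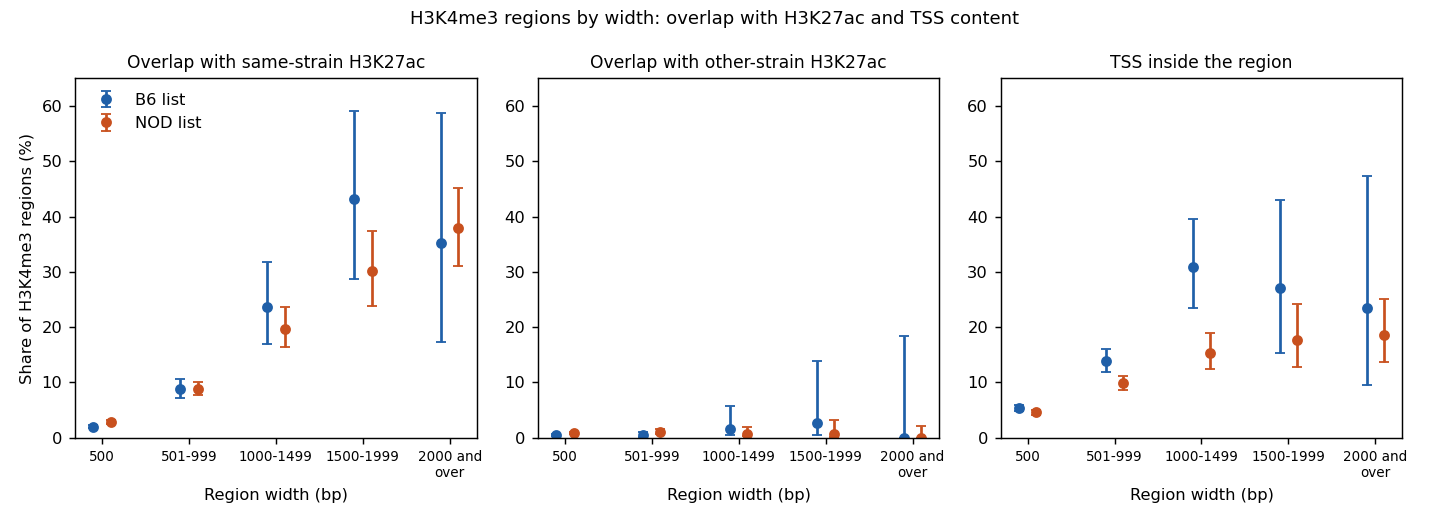
Share of H3K4me3 regions (%) that overlap a same-strain H3K27ac region, an other-strain H3K27ac region or hold a TSS, by width class (bp), for the B6 and NOD lists. Points are shares over the regions of 1 library and bars are 95% Wilson intervals. Same-strain H3K27ac rises from 1.99% and 2.87% at 500 bp to 35.3% and 37.9% at 2000 bp or more, and the other-strain share stays under 3%.

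Most wide regions did not cover a TSS. A RefSeq TSS lay inside 52 of 177 wide B6 regions (29.4%, 23.2 to 36.5) and 134 of 807 wide NOD regions (16.6%, 14.2 to 19.3), against 7.08% and 6.44% of the full lists. A longer region can hold a TSS more often by its length alone. Centres lay within 1 kb of a TSS in 36.2% of wide and 16.1% of narrower B6 regions. In NOD these shares were closer, at 20.2% and 15.6%. The centre was intronic in 93 B6 (52.5%) and 411 NOD regions (50.9%), exonic in 38 (21.5%) and 104 (12.9%), and intergenic in 46 (26.0%) and 292 (36.2%). The full lists had 45.7% and 47.4% intronic, 12.6% and 12.6% exonic, and 41.7% and 40.04% intergenic centres, so that the NOD shares lay near those of the list. Only 6 B6 and 39 NOD regions lay over 50 kb from any TSS, 3.39% and 4.83%, against 19.98% and 14.95% of narrower regions. The strongest of these were in an intron of Uggt2 in B6, with 140 B6 and 47 NOD tags, and 56.1 kb from Gm35521 in NOD, with 735 and 13. The second in NOD lay 80.4 kb from Gm26331 on chromosome 8, with 688 and 23, and overlapped a super enhancer.

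At matched signal, the share of wide NOD regions that held a TSS was below that of narrower ones in each band. In B6 this was so only at 80 to 160 normalised tags. Among regions of 20 to 40 normalised tags, a TSS lay inside 16.98% of wide and 16.3% of narrower B6 regions, and inside 9.73% and 11.97% in NOD. At 80 to 160 tags the shares were 37.5% and 42.3% in B6 and 17.4% and 20% in NOD. At 40 to 80 tags they were 30.5% and 23.9% in B6 and 15.4% and 21.0% in NOD. In each band the intervals of wide and narrower regions overlapped, and no test of the difference was run.

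Wide regions, like narrower ones, lay more often downstream than upstream of the TSS. Where a TSS was inside, the region centre was downstream of it in 42 of 52 B6 regions (80.8%, 68.1 to 89.2) and 86 of 134 NOD regions (64.2%, 55.8 to 71.8), compared with 60.6% and 54.6% of narrower regions with a TSS. The median centre was 263 and 242 bp into the gene. Of the regions with a centre within 5 kb of a TSS but none inside, 39 of 52 in B6 (75%, 61.8 to 84.8) and 195 of 292 in NOD (66.8%, 61.2 to 71.9) lay downstream. Among narrower regions these shares were 58.1% (55.9 to 60.2) and 64.6% (63.0 to 66.1), and the NOD intervals overlapped. By kb downstream of the TSS, NOD had 101, 89 and 51 wide centres in the first 3 kb in turn, and B6 had 53, 13 and 8. The narrower NOD regions had 1018, 824 and 357.

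**Figure D4:**
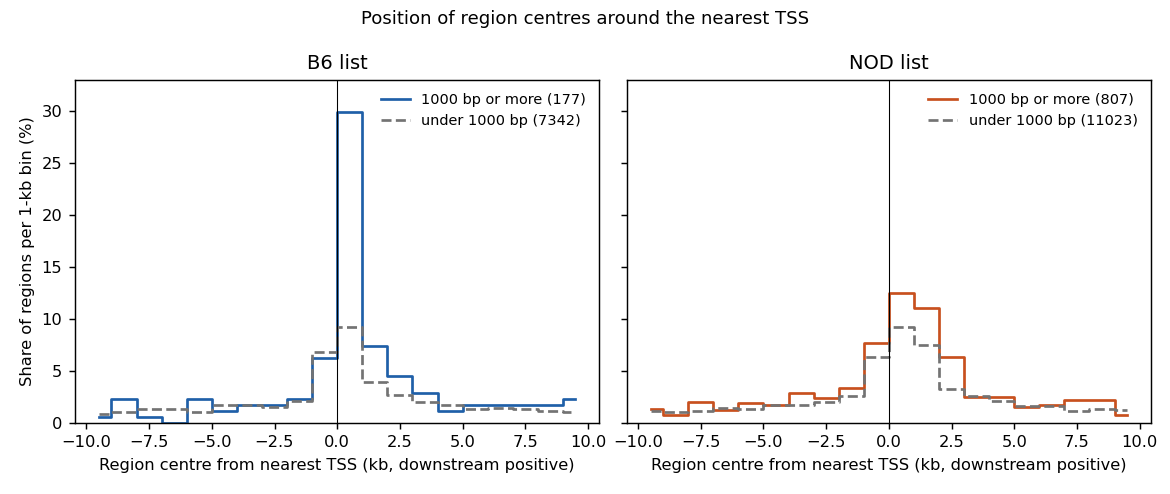
Share of regions (%) whose centre falls in each 1-kb bin around the nearest TSS (kb, downstream positive) for regions of 1000 bp or more (solid) and under 1000 bp (dashed). Wide B6 regions peak at 29.9% in the first kb downstream, and wide NOD regions reach 12.5% there and 11.03% in the second kb.

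The sequence of wide regions differed between the lists. The median CpG ratio was 0.368 in wide B6 regions (0.306 to 0.438) and 0.271 in wide NOD regions (0.262 to 0.283), against 0.230 in narrower regions of both. Median GC content was 50.2% and 47.1%, and 45.4% and 45.8% in narrower regions. Regions with a TSS were richer, with ratios of 0.464 in B6 and 0.360 in NOD, than those without, at 0.299 and 0.261. By the usual bounds for a CpG island, GC above 50% and a ratio above 0.6, taken after the values were seen, 26 wide B6 regions (14.7%, 10.2 to 20.7) and 53 wide NOD regions (6.57%, 5.06 to 8.49) were CpG-rich, against 5.34% and 5.85% of narrower ones. The part of the sequence that is soft-masked as repeats had a median of 19.4% in B6 and 22.6% in NOD, and reached 39.6% and 29.7% at 2000 bp or more, against 16.1% and 16.4% in narrower regions.

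Of the 26 CpG-rich wide B6 regions, 11 lay in 1 place and 15 elsewhere. Between 18 and 24 Mb of chromosome 12, in a run of predicted genes around 5730507C01Rik, Gm40853 and Gm38702, the B6 list held 11 wide regions, all 11 of them CpG-rich, out of 23 regions there. Their signal ran from 68.3 to 198.8 normalised tags, and 4 overlapped a B6 H3K27ac region. That at 5730507C01Rik held 294 B6 and 46 NOD tags, and that near Gm40853 288 and 10. In the same stretch the NOD list held 5 wide regions, 1 of them CpG-rich. Without this stretch, left out after the values were seen, 9.04% of wide B6 regions (5.55 to 14.4) and 6.48% of wide NOD regions (4.98 to 8.40) were CpG-rich, with overlapping intervals, and the median CpG ratios were 0.357 (0.298 to 0.402) and 0.271 (0.262 to 0.284). The treatment of reads that align to several of these predicted genes is not given in the sources used here.

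Genes with a wide region within 5 kb of a TSS numbered 145 in B6 and 600 in NOD. Of 20558 autosomal protein-coding genes they were 88 in B6 (0.428%) and 346 in NOD (1.68%). The counts of each list below stand against this background. Over 9 lists of genes for pluripotency, signalling, chromatin, germ line, lineage and immune functions and imprinting, 3 of 248 matched genes had a wide B6 region (1.21%, 0.412 to 3.50) and 20 a wide NOD region (8.06%, 5.28 to 12.1). The lists were written with earlier results of these data known, so these shares are no independent evidence.

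Among 23 core and naive pluripotency factors, 3 had a wide NOD region and 0 a wide B6 region. Zfp42 (Rex1), a zinc finger marker of the naive state, had 2. One of 6012 bp covered its TSS and held 1436 NOD and 77 B6 tags, a 12.1-fold difference (9.64 to 15.5), and the other lay in its gene body with 154 and 13. Pou5f1, which encodes the factor OCT4, had a 1663-bp region 869 bp from its TSS, in an intron of the non-coding gene Gm32362, with 110 NOD and 0 B6 tags, at least 23.8-fold higher in NOD. This region did not cover the TSS of Pou5f1. At the Pou5f1 promoter the study reports similar levels of both marks in B6 and NOD. Fgf4, a growth factor made by naive cells, had 96 and 5 tags in a region 3.57 kb from its TSS. None of these overlapped an H3K27ac region of either list.

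The signalling list of 30 LIF, FGF, Wnt and TGF-beta genes gave 1 NOD gene. Rnf43, a ubiquitin ligase that removes Wnt receptors from the cell surface, was covered at its TSS by a 3209-bp region with 415 NOD and 37 B6 tags, a 7.29-fold difference. Of 17 H3K4 methyltransferases, demethylases and partners, Setd1b, a methyltransferase of this very mark, had 2 NOD regions within 5 kb of its TSS and Ash2l, a core subunit of the complexes, had 2. Those of Setd1b lay at the TSS and in the body of the neighbouring gene Rhof, with 537 NOD against 83 B6 tags and 383 against 51, and those of Ash2l in the neighbouring Kcnu1, with 53 against 2 and 43 against 0. No TSS of either gene was inside a region, so the nearest gene differed from the listed one.

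Of 29 genes of the two-cell stage and trophoblast, 3 had wide NOD regions. Crxos, a homeobox gene of the early embryo, held 489 NOD and 11 B6 tags over its TSS, a 28.9-fold difference (16.0 to 58.3), on the NOD H3K27ac region ranked 3 by score. Pramel7 and Tdpoz3 had regions 3.22 and 3.50 kb from their TSSs with 261 against 16 and 89 against 6 tags. The only B6 region of the 22 germ line and DNA methylation genes was an intronic one in Aire, 3.91 kb from a TSS of Dnmt3l, a partner of the de novo DNA methyltransferases, with 129 B6 and 40 NOD tags.

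Lineage factors were represented in both lists. Olig2 had the one B6 region, 2654 bp over its TSS, with 239 B6 and 75 NOD tags, a 4.90-fold difference (3.77 to 6.44), and with 203 CpGs and no H3K27ac region. In NOD, Lhx2, a LIM homeobox factor of forebrain and eye, held 343 and 39 tags over its TSS and 58 and 4 in a second region in its gene body. Gata6, a factor of primitive endoderm, held 152 and 15, and Neurog2 144 and 23. These 4 regions over a TSS, and that of the imprinted Dlk1, had CpG ratios between 0.77 and 0.86. None overlapped a region of its own strain's H3K27ac list, which does not show that these promoters lack H3K27ac.

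The immune lists gave 1 B6 and 4 NOD genes. Of all autosomal protein-coding genes, 88 (0.428%) had a wide B6 region and 346 (1.68%) a wide NOD region. The higher NOD count was thus not particular to these lists. Of 25 MHC and antigen processing genes, Gm8909 was covered at its TSS in B6 with 288 B6 and 32 NOD tags, a 13.8-fold difference, on a B6 H3K27ac region. In NOD, H2-Eb1, the beta chain of an MHC class II molecule, had 2 regions, with 336 against 36 tags around an exon, on a NOD super enhancer annotated by the authors to the retroviral repeat LTRIS2, and with 127 against 6 over its TSS. Nlrc5, a transactivator of MHC class I genes, had 85 and 3 over its TSS, an 18.4-fold difference with an interval from 6.09 to 91.1. Of 42 innate immune and interferon genes, 2 had wide NOD regions. Ly6e, an interferon-inducible membrane protein, held 1351 NOD and 68 B6 tags in a 3431-bp region that began 166 bp downstream of a TSS, on a NOD super enhancer. Isg15, a ubiquitin-like protein induced by interferon, had a region 4.22 kb away, in exons of the neighbouring Agrn, with 226 and 19. MHC genes occur in duplicated copies, so reads at Gm8909 and H2-Eb1 may not be assigned with certainty, which was not tested.

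Of 31 imprinted genes, 4 had wide NOD regions. Dlk1 and Meg3, genes of 1 imprinted domain on chromosome 12 expressed from opposite parental alleles, were marked with 185 NOD against 27 B6 tags over the TSS of Dlk1 and 304 against 31 tags at 592 bp from that of Meg3. The region in Meg3 overlapped a NOD super enhancer and that of Dlk1 no region of the NOD H3K27ac list. Kcnq1ot1, a non-coding RNA that silences its neighbours, had 117 and 17 tags, and Zrsr1, in an intron of Commd1, had 88 and 14.

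Wide regions lay close to other regions of their list. Another H3K4me3 region of the same list was within 5 kb of 36 wide B6 regions (20.3%) and 332 wide NOD regions (41.1%), against 5.42% and 15.1% of narrower regions. In NOD, 182 had another wide region within 20 kb, and in B6 14 had one. The densest 1 Mb was that on chromosome 2 around Gm14407 and Zfp970, with 20 wide NOD regions, of which 11 overlapped H3K27ac and 3 held a TSS, and with no B6 region of any width. The 1 Mb of Gm13223 and Zfp990 on chromosome 4 held 8 wide NOD and no wide B6 regions. The 1 Mb of Sall1, which encodes a zinc finger factor, held 6, that of Nsd1, a histone methyltransferase gene, 6, and that of Zfp42, Triml1 and Triml2 held 5, as did 4 others, near Myof, Pced1b, 1600014C10Rik and Klra1. In B6, 4 was the highest number in 1 Mb.

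By chromosome, wide NOD regions ran from 0.154 per Mb on chromosome 18 to 0.665 on chromosome 8, and wide B6 regions from 0.0187 on chromosome 3 to 0.200 on chromosome 17. The share of wide regions that came from the NOD list had a median of 84.6% over chromosomes. It was lowest on chromosome 6, with 29 NOD and 22 B6 regions (56.9%, 43.3 to 69.5), and on chromosome 17 (62.0%, 48.2 to 74.1), where 6.64% of all B6 regions were wide. Wide regions made up 2.13% of the B6 list on chromosome 6, against a median of 2.06% over chromosomes. On chromosome 8 they made up 5.81% of the NOD list, against a median of 6.88%. The chromosome 6 and 8 extremes were thus not extremes in the share of regions that were wide.

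**Figure D5:**
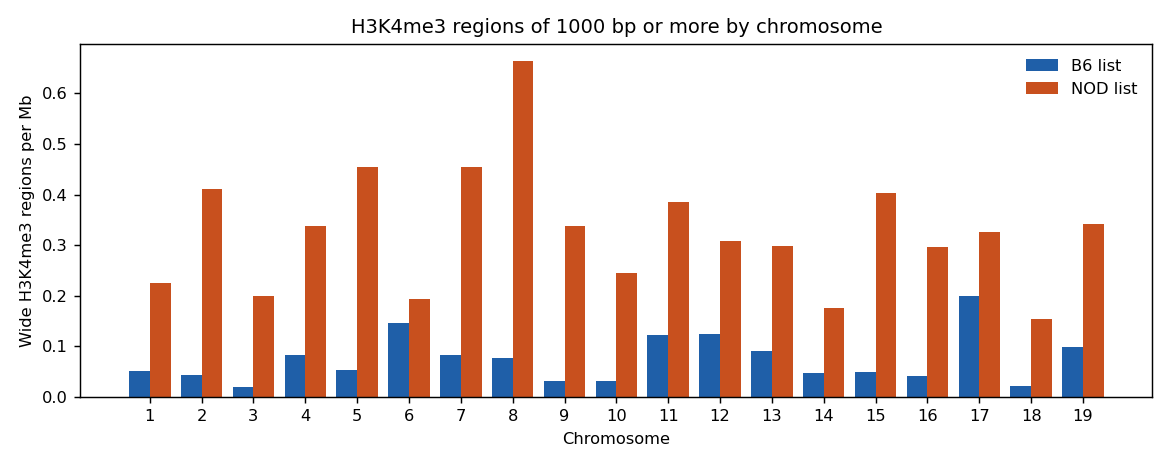
Wide H3K4me3 regions per Mb of each autosome in the B6 list (177 regions) and the NOD list (807 regions). Bars start at 0, chromosome 8 has the tallest NOD bar at 0.665, and chromosomes 6 and 17 have the tallest B6 bars at 0.147 and 0.200.

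Because each list required 4-fold more tags in opposite strains, overlap between the lists was limited by construction. No wide B6 region overlapped a NOD region of any width, and 4 wide NOD regions (0.496%) overlapped a B6 region, against 0.381% and 0.218% of narrower regions. Within 5 kb, 11.9% of wide B6 regions (7.89 to 17.5) had a NOD region and 3.59% of wide NOD regions (2.51 to 5.11) a B6 region, against 7.23% and 4.92% of narrower ones. The 4 wide NOD regions did so by 19 to 144 bp with a B6 region of 500 bp, near Gm41458, Fkbp1a-ps1, Ptp4a2 and Dst, which were named after their values were seen. Wide regions of both strains were found within 5 kb of the TSS or in the body of 9 genes. Beside Coil, Elobl and 2210409E12Rik, which share a pair of regions, the B6 region with 351 B6 and 78 NOD tags lay 380 bp from a NOD region with 71 NOD and 6 B6 tags. In Rapgef3, an exchange factor activated by cAMP, 1 TSS carried a region with 39 B6 and 13 NOD tags and another, in a region 5.08 kb away, 66 NOD and 8 B6 tags. In Zmiz1, a transcriptional coactivator, the B6 region had 159 and 57 tags and the NOD region, 69.2 kb away, 98 and 7. In Gm38702, of the cluster on chromosome 12, the B6 region over the TSS had 237 and 19 tags and the NOD region in an intron 152 and 3.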

How the data were processed

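H3K4me3 and H3K27ac were profiled by ChIP-Seq in B6 and NOD ES cells, with 1 library per strain and mark. According to the study's methods, reads were mapped to mm10 with bowtie2 and analysed with HOMER v4.8. The submitters' processing notes name mm9 and STAR 2.2.0c instead. The H3K27ac headers name mm10. The H3K4me3 headers name no build, so their coordinates were taken as mm10 (GRCm38). In that build 0 of the autosomal regions end beyond a chromosome. This count was not taken for mm9, so it does not tell the builds apart.

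Per the file headers, the authors stitched H3K4me3 regions from 500-bp peaks that had 4-fold or more tags over the other strain and passed a threshold of 8. The deposited signal gives tags per 10000000 library tags, called normalised tags. The deposited count of own tags is whole in the B6 list and scaled to the B6 library in the NOD list. Whole NOD tags were recovered within 0.0769 of a whole number. The deposited fold is the ratio between strains and served only as an alternative filter. The deposited p-value compares the same 2 libraries and was not used. The deposited H3K27ac score is own minus other strain on a scale that is not stated, and the slope beside it, at 1 or more, marked super enhancers.

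Region width is a deposited column. Overlap meant 1 bp or more. TSSs and gene bodies were those of RefSeq for GRCm38.p6, regions were named by the TSS nearest to their centre, and folds were recomputed from tags and library totals with exact binomial intervals, shares with Wilson intervals and medians with binomial order-statistic intervals (Python 3.11.15, scipy 1.17.1). A count of 0 was given a limit of 3 tags. The functions for overlap, distance, CpG and intervals were tested on simulated data. Members and gene lists were chosen with earlier results of these data known. Of 254 listed genes, 248 were matched on the autosomes. Named per list were the 10 strongest, the 5 widest, the 3 strongest without tags in the other strain, the 5 strongest on super enhancers, the 3 strongest on H3K27ac of the other strain, the 3 strongest over 50 kb from a TSS, listed genes, and genes with regions of both strains. Alternatives changed the width, fold, overlap, position and chromosomes used.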

Additional observations from a re-analysis of the deposited data

Results flagged for a closer look

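The X and Y chromosomes and the mitochondrial genome were outside the comparisons above, and wide regions were present there. The NOD list held 22 wide regions among 211 on chromosome X (10.4%, 6.99 to 15.3) and 6 among 36 on chromosome Y (16.7%, 7.87 to 31.9). The B6 list held 2 among 3 on the mitochondrial genome. On X it held 0 wide regions among 56, which allows a share of up to 5.36%. On Y it held 0 among 9, which allows up to 33.3%, so that no difference between the strains can be read from Y. On the autosomes 2.35% of the B6 list and 6.82% of the NOD list were wide, so a lower B6 share was not particular to X. The study chose male NOD lines to characterise, and which lines gave these libraries, and the sex of the B6 line, are not given in the sources used here.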

How the results depend on the processing

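With 1 library per strain and mark, nothing here measures biological spread, and lists called against the other strain leave out regions that both strains mark. Of 97 values under alternatives, 57 kept within 1.5 times of a count or within the interval of a share, median or ratio, and 40 did not. Without chromosomes 6 and 8 all 13 values kept so, as they did without the stretch of chromosome 12, an alternative added after the data were seen.

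Raising the width to 1500 bp left 54 B6 and 346 NOD regions, a ratio of 6.41, medians of 110.2 and 96.3 normalised tags, a same-strain H3K27ac share of 40.7% and 34.1%, and a CpG ratio of 0.259 in NOD. At 2000 bp there were 17 and 177, a ratio of 10.4, medians of 162 and 137 normalised tags, a same-strain H3K27ac share of 37.9% in NOD, an other-strain share of 0% in both lists and CpG ratios of 0.265 and 0.246. A deposited fold of 8 or more left 95 and 376 regions, TSS shares of 23.2% and 11.7%, and in NOD a median of 49.7 normalised tags, an H3K27ac share of 35.4% and a CpG ratio of 0.251. The same-strain H3K27ac share was 16.4% in B6 and 13.5% in NOD when the H3K27ac centre had to lie inside. In NOD it was 29.9% within 1 kb and 19.7% in the central 500 bp. In bands of normalised tags, added after the data were seen, it was 13.2% (20 to 40) and 39.6% (80 to 160) in B6, and 19.5% (20 to 40) and 22.6% (40 to 80) in NOD. The other-strain share in B6 was 0.565% in the central 500 bp. TSS shares were 58.8% and 52.8% for centres within 5 kb, 19.8% and 11.03% for protein-coding TSSs, and 20.2% in NOD for centres within 1 kb. With the TSS inside the region, 9 listed genes were met in NOD in place of 20. The cause of these shifts was not tested. The lower counts at larger widths follow from the stricter limit itself.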
